A study of Mus musculus with 10 samples.

Results

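The genes described here are 42 genes of fat cells and of lipid synthesis in mouse subcutaneous tissue: 20 adipocyte genes, 10 genes of fatty acid synthesis and 12 genes of sterol synthesis. They were chosen by name and function. Each gene was represented by the probe set that carries its symbol alone and has the highest mean level over the 10 arrays. Of the 42 genes, 40 were measured in this way, among 18193 genes in all. Cfd and Plin1, both adipocyte genes, have no probe set with a single symbol in the tables used here and were not analysed.

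RNA came from 6-week-old male Swiss nu/nu (nude) mice, which lack a functional thymus, and was hybridized to 10 Affymetrix mouse genome arrays, 1 per condition. The Control and Diabetic arrays hold subcutaneous biopsies of non-transplanted mice at day 0, Diabetic after a single intraperitoneal injection of streptozotocin, which destroys insulin-producing cells. The other 8 arrays hold grafts removed 1, 3, 7 and 10 days after they were placed under the skin, over the abdominal musculature, of streptozotocin-treated mice. A PSI graft was a gel of rat plasma with islets of male Wistar rats, and a PSI-F graft also held cultured skin fibroblasts of nu/nu mice. The number of mice behind each array is not stated. A difference between 2 single arrays therefore comes without a replicate and without a test, and p-values over several arrays measure the spread between arrays that also differ in day or graft kind. Rat islet RNA is seen only where it binds mouse probes.

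Fat cells store fatty acids as triglyceride in lipid droplets and release them through lipases, and they secrete hormones such as adiponectin and leptin. Fatty acids are built from citrate-derived acetyl-CoA by Acly, Acaca and Fasn, and are then elongated and desaturated by the Elovl and Scd enzymes. Cholesterol is built from acetyl-CoA through mevalonate, isoprenoids, squalene and lanosterol. The transcription factors encoded by Srebf1 and Srebf2 are the known activators of fatty acid and sterol synthesis genes, and Insig1 holds them inactive when sterols are plentiful. Insulin is known to favour lipid storage and fatty acid synthesis in fat and to restrain lipolysis. In skin, lipids are also made by sebaceous glands and by the epidermis.

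Most genes named below had levels well above the array medians of 2.82 to 2.94 on the log2 scale. Ucp1, the uncoupling protein of brown fat, lay between 1.33 and 2.20 on the 10 arrays, and Lep, the gene of leptin, between 1.98 and 3.72, so differences in both are close to the background. Otop1, another marker of brown fat, lay between 0.59 and 0.84, so Ucp1 and Otop1 were near background on every array. Others of the 8 brown fat markers listed were well above it: Cidea, Elovl3, Cox7a1 (5.80 to 8.58) and Cox8b (8.07 to 9.55). Cox7a1 and Cox8b were highest in Diabetic and lowest in PSI-F of day 3. So was the median of 8 skeletal muscle markers (12.21 and 11.21), and the part of muscle was not tested. Dio2 lay between 2.44 and 3.86 and Ppargc1a between 2.90 and 6.76. Adipoq, which encodes adiponectin, and Fabp4, a fatty acid carrier of fat cells, were clearly detected on every array, with levels of at least 6.37 and 9.76. In such whole tissue, fewer cells of a type and less RNA per cell cannot be told apart.

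The promoter of a gene is where factors such as those of Srebf1 and Srebf2 bind. Windows of 300 bases (250 before to 50 after the annotated start; RefSeq, GRCm38.p6) were given for 9 of the 12 sterol genes, and the letters of 4 motifs were searched in them on both strands: TCACNCCAC, a form of the sterol regulatory element, CCAAT, the box bound by NF-Y, CACGTG, an E-box, and GGGCGG, the core of a GC box. CCAAT was present in 9 of 9 sterol genes, against 41.1% of all genes with a window, and GGGCGG in 9 of 9, against 38.2%. TCACNCCAC was found in 1 of the 9 sterol genes, Hmgcs1, against 1.44% of all genes, and CACGTG in 2 of 9, against 8.09%. Of 7 fatty acid genes with a window, 5 held CCAAT, 3 held GGGCGG and none held TCACNCCAC or CACGTG. Of 14 adipocyte genes with a window, 4 held CCAAT, 6 GGGCGG, 1 CACGTG and none TCACNCCAC. Letters that match a motif do not show that a factor binds there. The windows of Hmgcs1 (chr13:119690101-119690400, + strand), which makes the precursor of mevalonate, and of Idi1 (chr13:8885356-8885655, + strand) and Nsdhl (chrX:72918271-72918570, + strand), the sterol genes with the largest difference between Diabetic and Control, are shown as examples, with TCACNCCAC and CCAAT on either strand in capitals. They span the annotated start of each gene and thus end within its first transcribed bases.
Hmgcs1: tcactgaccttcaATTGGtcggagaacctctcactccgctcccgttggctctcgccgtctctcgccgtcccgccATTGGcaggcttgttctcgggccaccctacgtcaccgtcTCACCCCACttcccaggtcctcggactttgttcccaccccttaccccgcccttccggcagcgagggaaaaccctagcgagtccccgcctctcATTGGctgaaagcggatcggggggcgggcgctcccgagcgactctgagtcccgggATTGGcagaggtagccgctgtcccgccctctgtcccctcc
Idi1: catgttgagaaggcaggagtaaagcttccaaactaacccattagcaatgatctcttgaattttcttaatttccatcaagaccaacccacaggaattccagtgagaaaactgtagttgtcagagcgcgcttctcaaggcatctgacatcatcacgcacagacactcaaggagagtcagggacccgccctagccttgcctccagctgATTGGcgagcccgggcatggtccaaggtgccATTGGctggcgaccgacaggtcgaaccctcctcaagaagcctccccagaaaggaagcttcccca
Nsdhl: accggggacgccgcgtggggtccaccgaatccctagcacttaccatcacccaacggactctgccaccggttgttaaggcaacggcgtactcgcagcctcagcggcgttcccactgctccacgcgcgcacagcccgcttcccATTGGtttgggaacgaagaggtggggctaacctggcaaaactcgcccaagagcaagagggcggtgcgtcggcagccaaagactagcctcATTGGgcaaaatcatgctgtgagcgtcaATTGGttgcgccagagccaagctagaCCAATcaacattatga
The Hmgcs1 window holds 4 CCAAT matches and the sterol element within the same 300 bases, the Idi1 window 2 and the Nsdhl window 4 CCAAT matches, mostly as ATTGG on the strand shown.

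The first comparison asks how these genes differed between subcutaneous tissue of diabetic and of healthy mice. The sterol genes and many fatty acid genes were lower in Diabetic than in Control, while the adipocyte genes were split. All 12 sterol genes were lower in Diabetic, 7 of them by 2-fold or more, with a median difference of -1.22 on the log2 scale. Of the 10 fatty acid genes, 8 were lower, 5 of them by 2-fold or more, with a median of -1.09. Of the 18 adipocyte genes, 12 were lower and 6 higher, with 3 beyond 2-fold on each side and a median of -0.32. Over all 40 genes, 15 were 2-fold or more lower and 3 were 2-fold or more higher, where 6.89% of all genes were that much lower and 4.12% that much higher, and the median of all genes was 0.00. With 1 array against 1, these are differences between 2 arrays, and all counts of this comparison rest on the same pair.

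**Figure D1:**
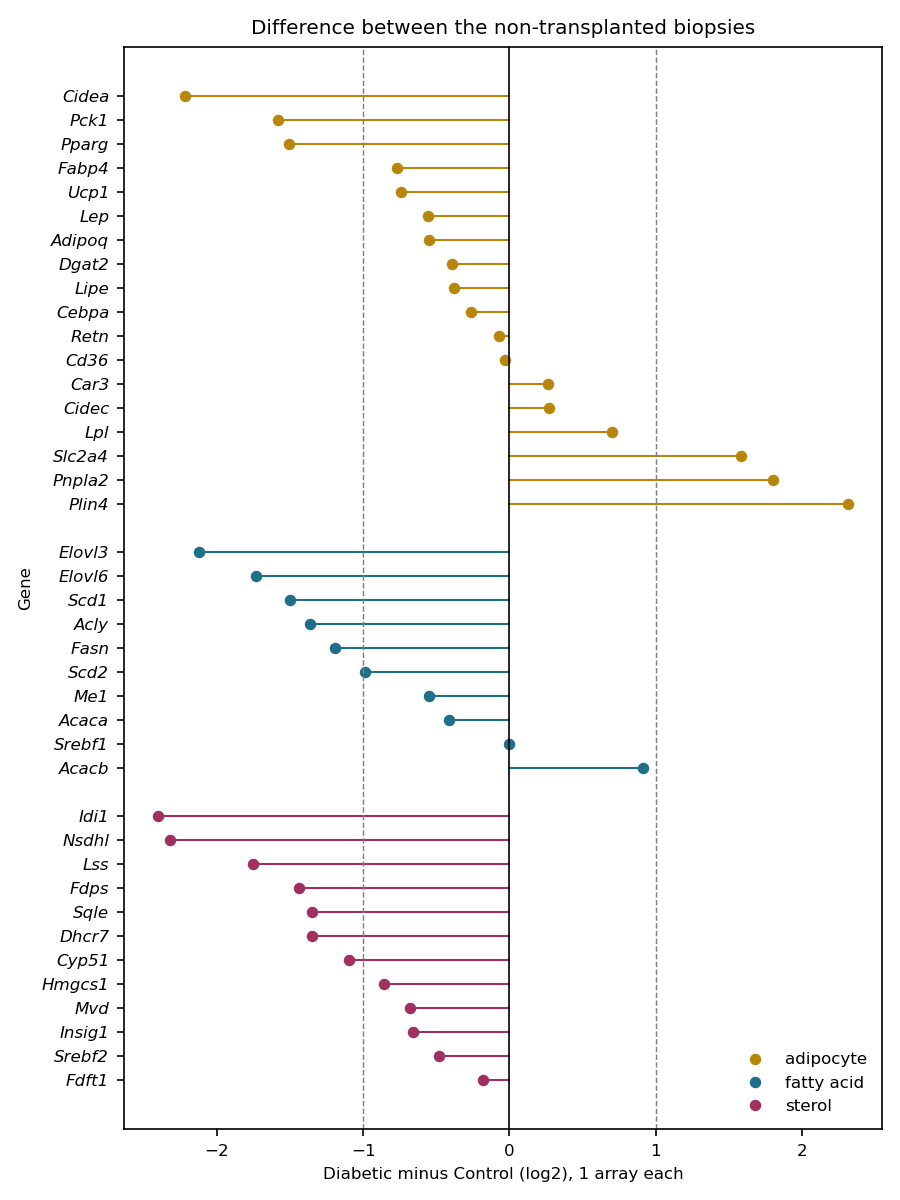
Difference between the Diabetic and the Control array for each of the 40 genes on the log2 scale, grouped by function, with 1 array each and therefore no error bar. Dashed lines mark 2-fold. The 12 sterol genes all lie left of 0, from -2.40 (Idi1) to -0.18 (Fdft1), while the adipocyte genes run from -2.22 (Cidea) to 2.31 (Plin4).

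In the sterol pathway the largest differences were in Idi1 and Nsdhl. Idi1, the isomerase that forms the isoprenoid building block, stood at 8.65 on the log2 scale in Control, at 6.25 in Diabetic, 7.82 and 7.50 in PSI and PSI-F on day 1, 7.68 and 7.19 on day 3, 6.79 and 6.66 on day 7, and 7.98 and 7.52 on day 10. Control was the highest and Diabetic the lowest of the 10 arrays, a difference of -2.40 or 5.27-fold, and the grafts lay between them. Nsdhl, which helps to remove methyl groups from the sterol ring, was at 7.70 in Control and 5.38 in Diabetic, 6.93 and 6.66 on day 1, 6.69 and 6.25 on day 3, 6.11 and 6.14 on day 7, and 6.97 and 6.95 on day 10 (PSI and PSI-F in turn). Here too all 8 grafts lay between the biopsies, which differed by 4.99-fold.

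Sqle, the epoxidase that commits squalene to sterols, had levels of 8.42 in Control, 7.07 in Diabetic, 7.56 and 7.20 in PSI and PSI-F on day 1, 7.38 and 6.97 on day 3, 6.55 and 6.31 on day 7, and 7.89 and 7.78 on day 10. The lowest arrays were the grafts of day 7, not Diabetic, which was 2.56-fold below Control. Lss, which closes the ring to lanosterol, was at 6.99 in Control, 5.23 in Diabetic, 6.19 and 6.08 on day 1, 6.20 and 5.53 on day 3, 5.64 and 5.13 on day 7, and 6.44 and 6.40 on day 10. PSI-F on day 7 was lowest, slightly below Diabetic. Lss is the least certain of these, since its 3 probe sets did not all differ in the same direction and their mean gave a difference of -0.56 in place of -1.75.

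Fdps, which makes farnesyl pyrophosphate, was at 8.03 in Control and 6.59 in Diabetic, 7.28 and 7.06 on day 1, 7.32 and 6.46 on day 3, 6.26 and 6.23 on day 7, and 7.64 and 7.38 on day 10. Day 7 was lower than Diabetic in both kinds of graft. The mean of the 2 Fdps probe sets, which differ in sign, gives a difference of -0.62 in place of -1.44. The second of them had a mean level of only 0.59, near background, so its sign carries little information. Cyp51, the lanosterol demethylase, was at 7.82 in Control and 6.72 in Diabetic, 7.20 and 6.97 on day 1, 6.96 and 6.46 on day 3, 6.22 and 5.97 on day 7, and 7.29 and 6.87 on day 10. Dhcr7, which makes cholesterol in a last step, was at 7.27 and 5.93, 6.20 and 6.06 on day 1, 5.84 and 5.91 on day 3, 5.64 and 5.16 on day 7, and 6.49 and 6.46 on day 10. Control was above all the other arrays for these 3 genes, and the lowest array was always a graft of day 7.

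The remaining sterol genes differed less between the biopsies. Hmgcs1 was at 10.06 in Control and 9.21 in Diabetic, and the grafts ranged from 8.76 to 9.90. The differences of the others were -0.68 for Mvd, which makes isopentenyl pyrophosphate, -0.66 for Insig1, -0.48 for Srebf2 and -0.18 for Fdft1, the squalene synthase. Control was the highest of the 10 arrays in 11 of the 12 sterol genes, all but Srebf2, where 17.5% of all genes had their highest level there. Over the 40 genes it was the highest in 18, among them 6 of 10 fatty acid genes and 1 of 18 adipocyte genes. Diabetic was the lowest array in 8 of the 40 genes, or 20.0%, against 19.8% of all genes, so the genes as a group did not stand apart there. PSI-F of day 7 was the lowest array in 7 of the 12 sterol genes, against 16.9% of all genes.

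**Figure D2:**
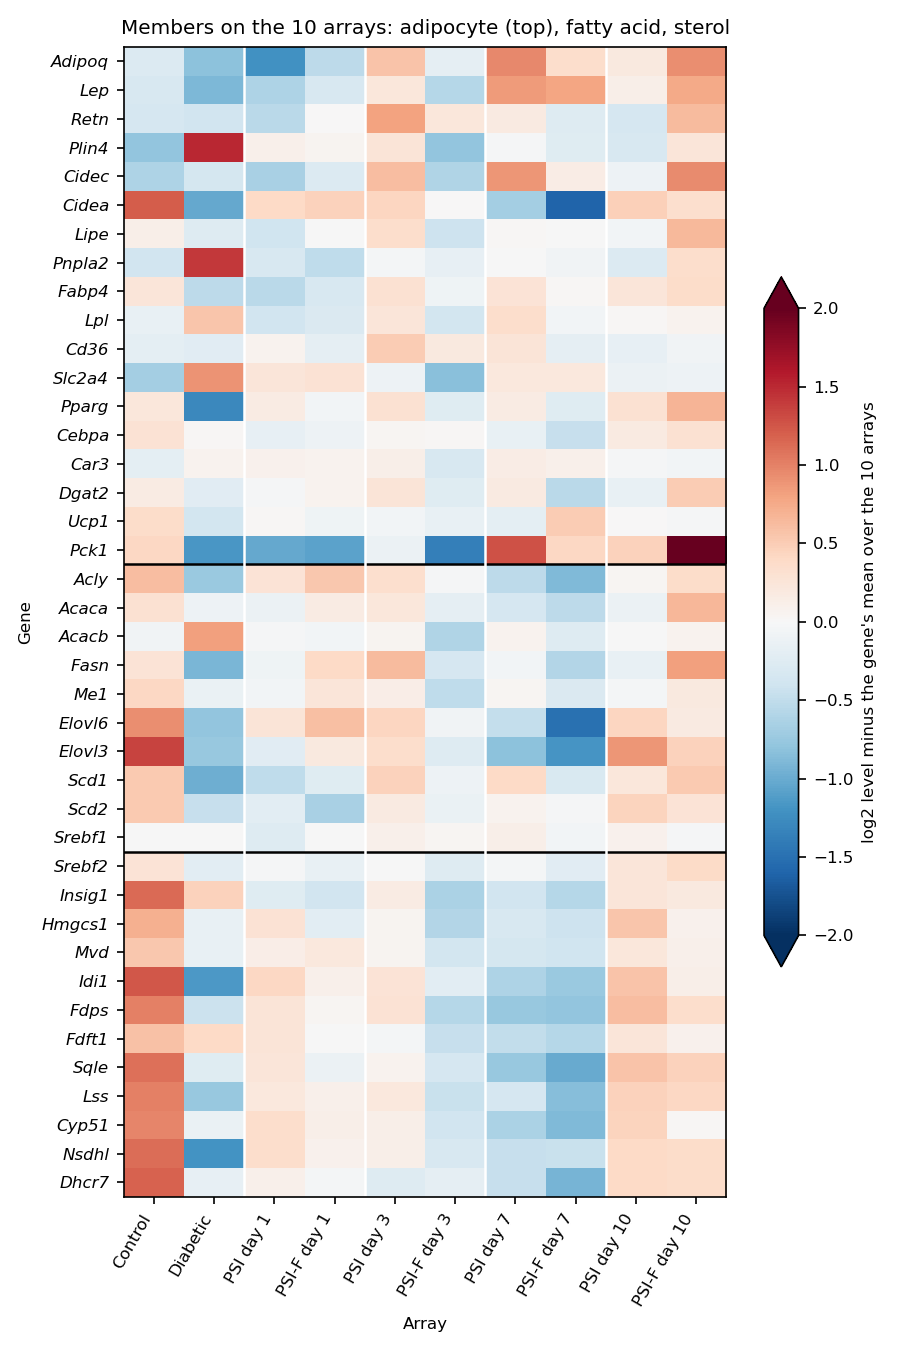
Level of each of the 40 genes on each of the 10 arrays, as the log2 level minus the gene's own mean over the 10 arrays (red above, blue below; colours end at 2 and -2), with adipocyte genes on top, fatty acid genes in the middle and sterol genes at the bottom. The Control column is red for the sterol genes, and Idi1 and Nsdhl are lowest in Diabetic. The day 7 columns are mostly blue for the sterol genes and the day 10 columns mostly red.

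Other genes of sterol metabolism, not all of them of synthesis, were lower in Diabetic as well, on the same pair of arrays. They came from a further list, also chosen with earlier results of these data known. All 13 measured genes were lower, 6 of them by 2-fold or more, with a median of -0.82. The largest differences were in Msmo1, a sterol methyl oxidase, at -2.07, Insig2, a relative of Insig1, at -1.41, Stard4, a cholesterol carrier, at -1.40 and Ebp, a sterol isomerase, at -1.23.

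Among the fatty acid genes, Elovl3 and Elovl6, which lengthen fatty acids, differed most. Elovl3 was at 8.92 in Control, 6.80 in Diabetic, 7.33 and 7.76 in PSI and PSI-F on day 1, 7.92 and 7.31 on day 3, 6.74 and 6.38 on day 7, and 8.45 and 8.03 on day 10. Diabetic was 4.34-fold below Control and close to the grafts of day 7. Elovl6 was at 9.19 and 7.46, 8.51 and 8.85 on day 1, 8.68 and 8.18 on day 3, 7.78 and 6.76 on day 7, and 8.69 and 8.44 on day 10, so that PSI-F of day 7 was the lowest array and Diabetic the next.

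Scd1, which places the double bond of oleic acid, was at 11.17 in Control and 9.67 in Diabetic, 10.13 and 10.40 on day 1, 11.10 and 10.54 on day 3, 11.04 and 10.33 on day 7, and 10.86 and 11.17 on day 10. Diabetic was the lowest array, 2.84-fold below Control. Fasn, the fatty acid synthase, was at 8.63 and 7.44, 8.26 and 8.75 on day 1, 8.99 and 8.02 on day 3, 8.30 and 7.77 on day 7, and 8.20 and 9.17 on day 10. Diabetic was again lowest, 2.27-fold below Control. Acly, which supplies acetyl-CoA, was 2.57-fold lower in Diabetic, a difference of -1.36 that the mean over its 6 probe sets lowers to -0.65. That mean includes probe sets with mean levels of 0.52, 0.54 and 1.27, near background. Scd2, a relative of Scd1, differed by -0.99, Me1, which makes NADPH, by -0.55 and Acaca, the carboxylase of the first step, by -0.41. Acacb, the carboxylase linked to the control of fatty acid oxidation, was higher in Diabetic by 0.91. Srebf1 was at 7.34 on both arrays, a difference of 0.00.

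Of 16 further genes of fatty acid metabolism, 3 were 2-fold or more lower in Diabetic and 1 higher, with a median of -0.55. Thrsp, a lipogenic gene known to respond to carbohydrate, had the largest difference, at -3.61, from a level of 7.03 in Control to 3.42 in Diabetic, while the grafts lay between 6.40 and 8.40. Slc25a1, the mitochondrial citrate carrier, differed by -1.66, Insr, the insulin receptor, by 1.18 and Hsd17b12, which works in fatty acid elongation, by -1.17. Of 13 measured genes of fatty acid oxidation and its control, 9 were higher and 4 lower in Diabetic, with a median of 0.27. None was 2-fold or more lower, and 4 were 2-fold or more higher, where 4.12% of all genes were that much higher. These 4 were Pdk4, which restrains glucose oxidation, at 3.06, Ppargc1a at 2.65, Ucp3 at 2.16 and Ppara at 1.26. The others, among them the enzymes of the oxidation steps on this list, ran only from -0.73 to 0.32.

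The adipocyte genes did not move as a group. Cidea, a lipid droplet protein, was at 7.64 in Control and 5.41 in Diabetic, 6.84 and 6.89 in PSI and PSI-F on day 1, 6.86 and 6.44 on day 3, 5.75 and 4.83 on day 7, and 6.91 and 6.77 on day 10. It was 4.67-fold lower in Diabetic and ran like the sterol genes, with Control highest and PSI-F of day 7 lowest. Plin4, another droplet protein, went the other way: it was at 6.78 in Control and 9.09 in Diabetic, 7.67 and 7.63 on day 1, 7.84 and 6.78 on day 3, 7.55 and 7.34 on day 7, and 7.26 and 7.81 on day 10. Diabetic was the highest array, 4.96-fold above Control, and no graft reached it. Cidec, a droplet protein of white fat, differed by 0.27.

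Of the lipases, Pnpla2, which starts the breakdown of triglyceride, was at 6.24 in Control and 8.04 in Diabetic, while the 8 grafts lay between 6.12 and 6.98. Its difference of 1.80, 3.48-fold, set the Diabetic array apart from all 9 others, whereas Lipe, the hormone-sensitive lipase, differed by -0.38. Among the genes of uptake, Slc2a4, the insulin-responsive glucose transporter, was at 6.81 in Control and 8.39 in Diabetic, with grafts between 6.66 and 7.78. Lpl, the lipoprotein lipase, differed by 0.70, Cd36, a fatty acid receptor, by -0.03 and Fabp4 by -0.77.

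Of the regulators of fat cell formation, Pparg was at 4.57 in Control and 3.06 in Diabetic, and the grafts, from 4.11 to 5.02, all lay above Diabetic. Cebpa, its partner, differed by only -0.26. Of the secreted proteins, Adipoq differed by -0.55, Lep by -0.56 and Retn, the gene of resistin, by -0.07. Pck1, used in fat cells to make glycerol for triglyceride, was at 4.43 in Control and at 2.85 in Diabetic, where it was near background. Dgat2, the last enzyme of triglyceride synthesis, differed by -0.39, Ucp1 by -0.74 and Car3, an abundant carbonic anhydrase of fat and muscle, by 0.26. A list of 22 further adipocyte genes was split as well, with 6 genes 2-fold or more lower, 2 higher and a median of 0.04. The largest were Lpin1, a triglyceride enzyme, at 2.92, Agt at 2.72, Lgals12 at -1.81 and G0s2, an inhibitor of Pnpla2, at -1.70, the last 2 with levels in Diabetic (2.59 and 2.38) below the array medians and thus near background.

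The groups had the same direction when every probe set was counted. The 40 genes have 83 single-symbol probe sets, of which 62 were lower in Diabetic, 27 of them by 2-fold or more, and 3 were 2-fold or more higher. Of 27 sterol probe sets, 23 were lower, 11 by 2-fold or more, and of 23 fatty acid probe sets, 11 were that much lower. Among 24 genes with several probe sets, 7 had probe sets of both signs: Lipe, Cd36, Car3, Acly, Fdps, Fdft1 and Lss. In Lipe, Acly, Fdps and Fdft1 the probe sets that were higher in Diabetic had mean levels of 0.59 to 2.18, below the array medians.

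Markers of other cells also differed between the 2 biopsies. Of 8 sebaceous gland markers listed, 4 were measured (Far2, Plin2, Gal and Cidea, the last also one of the genes described), and 3 of them were 2-fold or more lower in Diabetic, with median levels of 7.82 in Control and 5.31 in Diabetic. Far2, which makes wax alcohols, was at 8.01 in Control and 5.20 in Diabetic. Of 7 epidermal markers, 5 were 2-fold or more lower in Diabetic, and the median level was 11.23 in Control and 9.66 in Diabetic. All 8 skeletal muscle markers were higher in Diabetic, by a median of 0.56, and Slc2a4, Plin4, Pnpla2, Lpin1, Pdk4 and Ucp3 are known to be used in muscle as well. The part of these cells in the differences above was not tested.

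In the grafts, the sterol genes followed the days. Their median level was 7.76 in Control and 6.28 in Diabetic, 7.06 and 6.82 in PSI and PSI-F on day 1, 6.82 and 6.35 on day 3, 6.16 and 6.06 on day 7, and 7.13 and 6.91 on day 10. Both grafts of day 7 lay below Diabetic, and those of day 10 were close to those of day 1. The fatty acid genes had medians of 8.77 and 7.50 in the biopsies, 8.0 and 8.15 on day 1, 8.30 and 7.70 on day 3, 7.81 and 7.39 on day 7, and 8.32 and 8.24 on day 10. The adipocyte medians stayed between 6.60 and 7.36 on all 10 arrays.

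**Figure D3:**
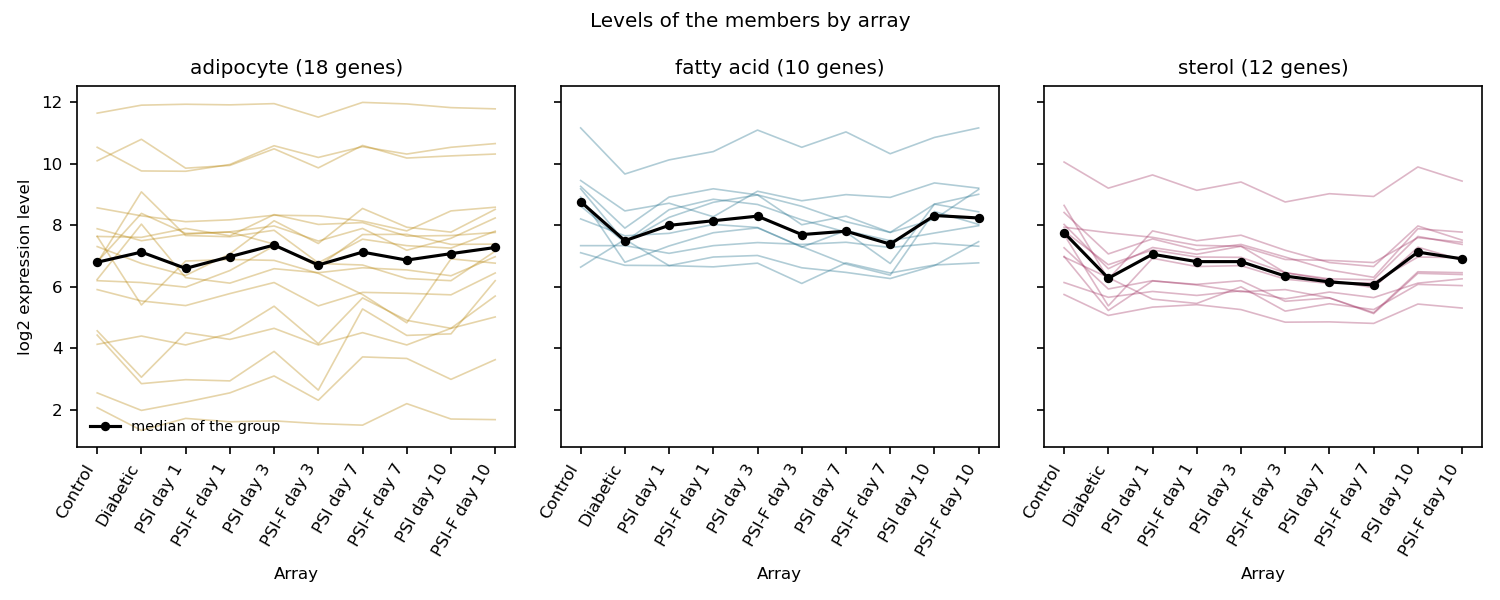
Log2 expression level of each gene (coloured lines) and the median of its group (black line with points) on the 10 arrays, for 18 adipocyte, 10 fatty acid and 12 sterol genes; lines join arrays of different mice only to guide the eye. The sterol median is 7.76 in Control and 6.28 in Diabetic, 6.16 and 6.06 on day 7 and 7.13 and 6.91 on day 10, whereas the adipocyte median stays between 6.60 and 7.36.

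The grafts of day 10 were therefore compared with those of day 7, a comparison chosen after these values were seen. It was tested with limma on the 8 grafts, with day and graft kind as terms. Of the 40 genes, 8 had an adjusted p under 0.05, all higher on day 10, where 1.44% of all genes were called higher. They were 6 of the 12 sterol genes (Sqle, Fdps, Dhcr7, Lss, Idi1 and Cyp51), 1 of the 10 fatty acid genes (Elovl3) and 1 of the 18 adipocyte genes (Cidea). All 12 sterol genes were higher in both grafts of day 10 than in either of day 7. The share of all genes with the days apart is not given here. All 12 also had an unadjusted p under 0.05 in limma, where 1897 of all 18193 genes were higher at that p. The median difference was 0.91 for sterol, 0.49 for fatty acid and 0.09 for adipocyte genes, and -0.02 for all genes.

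Elovl3 rose from a mean of 6.56 ± 0.25 (SD, n = 2) on day 7 by 1.68 on the log2 scale (SE 0.24, 3.21-fold, limma adjusted p = 0.0279). For Cidea the mean on day 7 was 5.29 ± 0.65 (SD, n = 2) and the rise 1.56 (SE 0.23, limma adjusted p = 0.0293). Sqle rose by 1.40 (SE 0.14, 2.65-fold) from 6.43 ± 0.17 (SD, n = 2), with the smallest adjusted p of the 40 genes in limma, 0.0202. The other 5 rose by 1.27 (Fdps, SE 0.20), 1.07 (Dhcr7, SE 0.17), 1.03 (Lss, SE 0.19), 1.02 (Idi1, SE 0.15) and 0.98 (Cyp51, SE 0.14), with limma adjusted p-values of 0.0356, 0.0344, 0.0482, 0.0293 and 0.0291. With the mean of each gene's probe sets, Fdps (0.70, limma adjusted p = 0.0546), Idi1 (0.92, limma adjusted p = 0.0626) and Lss (0.76, limma adjusted p = 0.0665) were no longer called, while Elovl6 (1.11), Srebf2 (0.76) and Hmgcs1 (0.80) were. The second Fdps probe set had a mean level of 0.59, near background. The 6 other sterol genes had differences from 0.44 (Srebf2) to 0.83 (Nsdhl, adjusted p = 0.0591 in limma). Elovl6, with 1.30 (SE 0.28), and Acly, with 0.91 (SE 0.21), had limma adjusted p-values of 0.0756 and 0.0909, although both days were apart for each. Adipoq differed by -0.10, with a 95% interval from -0.97 to 0.78, and Plin4 by 0.09, with one from -0.65 to 0.84.

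**Figure D4:**
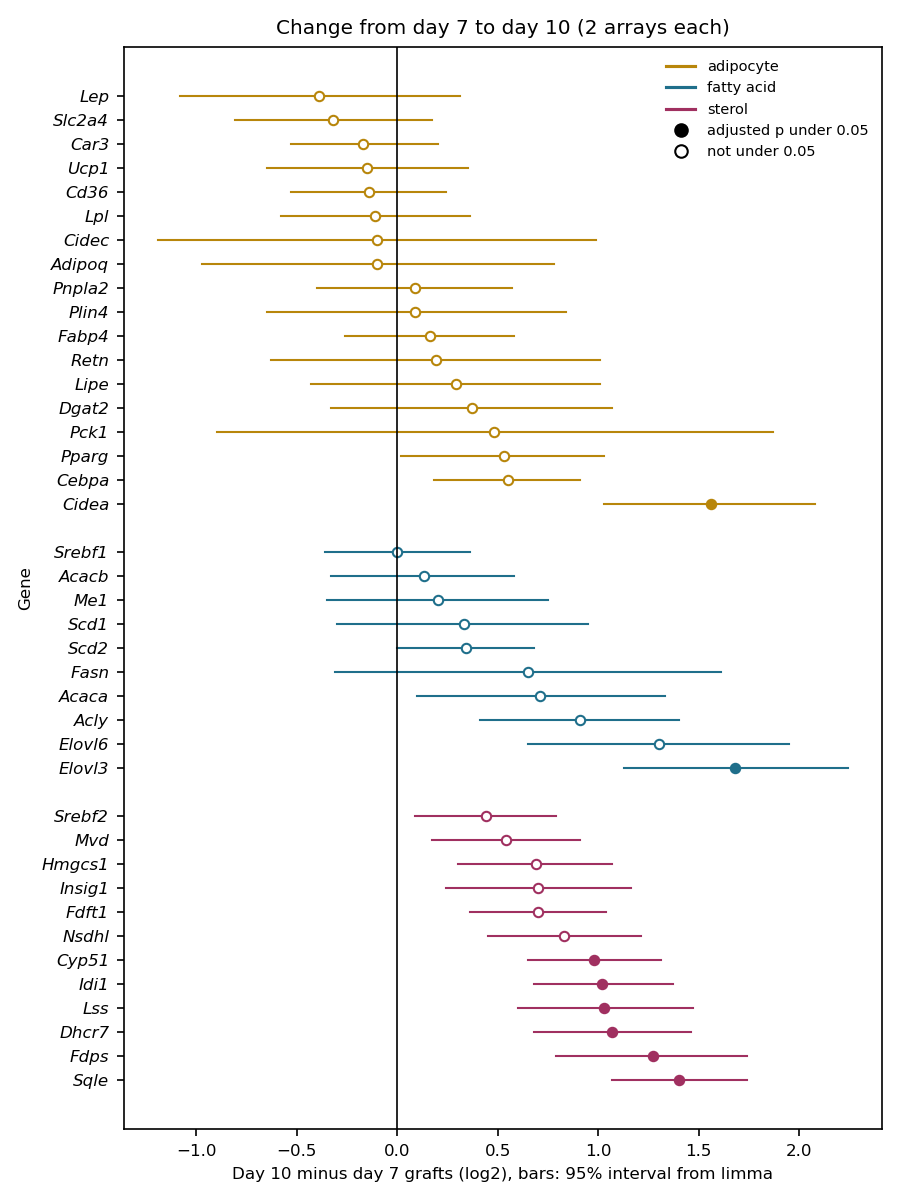
Difference between the grafts of day 10 and day 7 for each of the 40 genes on the log2 scale (2 arrays a day), with 95% intervals from limma; filled points have an adjusted p under 0.05. The 12 sterol genes all lie right of 0, from 0.44 (Srebf2) to 1.40 (Sqle), and among the adipocyte genes only Cidea, at 1.56, is filled.

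These calls rest on few arrays. With any 1 of the 6 grafts of days 1, 7 and 10 left out (PSI or PSI-F), none of the 40 genes had an adjusted p under 0.05 in limma, and calls over all genes dropped from 359 to between 0 and 10. Leaving out a graft of day 1 cannot change the difference itself, and without 1 of day 7 or 10 a lone array stands for that day. No difference of a sterol gene changed sign in these 6 fits. That carries little information, since both grafts of day 10 already lay above both of day 7 in all 12.

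Among the further pathway genes, 10 of 13 sterol genes were higher on day 10 than on day 7 (median 0.56). All 10 had an unadjusted p under 0.05 in limma, where 1897 of all 18193 genes were higher at that p, and 3 were called. These were Msmo1, by 1.37 (limma adjusted p = 0.0273), Sc5d, by 0.90 (limma adjusted p = 0.0443), and Stard4, by 0.85 (limma adjusted p = 0.0479). Of the 16 further fatty acid genes 11 were higher (median 0.35) and 2 were called. These were Acot1, by 1.35 (limma adjusted p = 0.0314), and Hsd17b12, by 0.93 (limma adjusted p = 0.0419). None of the 22 further adipocyte or 13 fatty acid oxidation genes was called. Some markers of sebaceous glands and epidermis rose over the same days. Of the 4 sebaceous markers 2 were called, Far2 by 1.79 (limma adjusted p = 0.0202) and Cidea, while Plin2 differed by 0.29 and Gal by -0.20. Of the 7 epidermal markers 2 were called, Ivl by 1.39 (limma adjusted p = 0.0214) and Dsg1a by 1.15 (limma adjusted p = 0.0314), while Krt14 differed by 0.46 and Krt1 by 0.05. None of the 7 hair follicle markers was called, although all were higher on day 10, with medians over the list of 5.70 and 8.69 on day 7 and 9.84 and 10.05 on day 10. Markers of other cells lay lower on day 10: all 6 of endothelium (median -0.77, with 1, Tie1, called at -1.10, limma adjusted p = 0.0311), all 7 of macrophages (median -0.61), all 6 of islets (median -0.62) and all 7 of fibroblasts (median -0.47), with none called in the last 3 lists. The part of these cells was not tested.

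The genes that were lower in Diabetic than in Control were largely those higher on day 10 than on day 7, although the arrays compared are different ones. Of the 12 sterol genes 12, of the 10 fatty acid genes 8 and of the 18 adipocyte genes 8 were lower in Diabetic and higher on day 10, which makes 28 of 40, or 70.0%, against 29.0% of all genes. Across the 40 genes the differences had a Pearson r of -0.71 and a Spearman rho of -0.74, and across all 18193 genes r was -0.33 and rho -0.32. These coefficients are descriptions, since genes of a pathway or tissue are not independent and all arrays were normalized together.

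**Figure D5:**
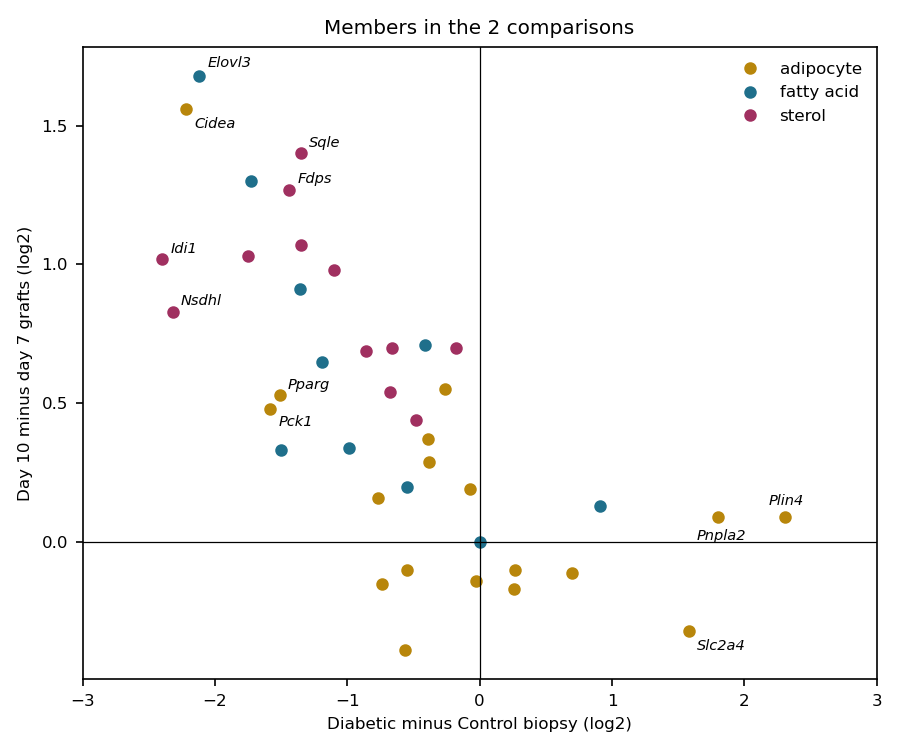
Each of the 40 genes by its difference between Diabetic and Control (x axis, log2, 1 array each) and between the grafts of day 10 and day 7 (y axis, log2, 2 arrays each), coloured by group. All 12 sterol genes lie in the upper left, lower in Diabetic and higher on day 10, with Elovl3 and Cidea at its edge, while Plin4, Pnpla2 and Slc2a4 lie to the right near 0 on the y axis.

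Whether fibroblasts changed these genes was asked by comparing PSI-F with PSI. With the day as a block, none of the 40 genes had an adjusted p under 0.05 in limma, and the share of all genes called was 0%. The smallest adjusted p was 0.751. All 12 sterol genes were lower in PSI-F in this fit (median -0.29), where 9835 of all 18193 genes were (median -0.02). Of the 10 fatty acid genes 9 were lower (median -0.14). On each of the 4 days 11 of the 12 sterol genes were lower. Of all genes, 9711, 9136, 10406 and 8784 were lower on days 1, 3, 7 and 10. The 13 further sterol genes did not lean to PSI on every day. Their median was -0.08 in the same fit, and 8 of 13 were higher in PSI-F on day 3 (median 0.03) and 7 of 13 on day 10 (median 0.01). At an unadjusted p under 0.05 in limma, 7 genes were lower in PSI-F and none higher, where 3.48% of all genes were lower at that p: Hmgcs1, Cyp51, Idi1, Sqle, Lss, Fdps and Scd2. The 6 sterol genes among them became 3 without day 3, 3 with loess normalization on top and 0 without the day block. The difference of Fdps went from -0.34 to -0.17 without day 3. It was -0.05 with the mean of its probe sets, of which the second was near background. Hmgcs1 had the largest difference, -0.42 (SE 0.12, 95% interval from -0.70 to -0.15), with -0.5, -0.65, -0.09 and -0.46 on days 1, 3, 7 and 10. Its mean was 9.07 ± 0.29 (SD, n = 4) in PSI-F and 9.49 ± 0.37 (SD, n = 4) in PSI. These ranges overlapped, but each SD is taken over 4 different days and leaves out the pairing by day. The size of the sterol difference changed with the day, with medians of -0.22, -0.46, -0.15 and -0.12 on days 1, 3, 7 and 10. In the same fit 3 of 4 sebaceous markers were lower in PSI-F (median -0.33, 2 with an unadjusted p under 0.05 in limma), and so were all 7 hair follicle markers (median -1.20, none with such a p), and their part was not tested.

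Within single days few of the genes were 2-fold apart. On day 1 none was, where 1.13% of all genes were. On day 3, 3 genes were lower in PSI-F, Pck1 by -1.26, Cidec by -1.22 and Plin4 by -1.06, where 2.86% of all genes were 2-fold apart. Elovl6 was the only one on day 7, at -1.02 (1.78% of all genes), and on day 10 Pck1, at 1.72, and Cidec, at 1.05, were higher in PSI-F (0.731% of all genes). The adipocyte genes leaned to opposite sides on days 3 and 10, with all 18 lower in PSI-F on day 3 (median -0.55) and 15 of 18 higher on day 10 (median 0.46). The lean of day 3 was not particular to them: all 10 fatty acid genes (median -0.53) and 11 of 12 sterol genes (median -0.46) were lower too. On day 7, 16 of 18 adipocyte and all 10 fatty acid genes were lower. On day 10, 6 of 10 fatty acid genes were higher (median 0.16). The median of all genes was 0.00 on day 3 and 0.01 on day 10. All 8 skeletal muscle markers and all 7 hair follicle markers were also lower in PSI-F on day 3, with medians of -0.61 and -6.32, and their part in the difference was not tested.

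Adipoq shows this course. It was at 7.31 in Control and 6.76 in Diabetic, 6.37 and 7.07 in PSI and PSI-F on day 1, 8.15 and 7.41 on day 3, 8.55 and 7.94 on day 7, and 7.78 and 8.52 on day 10. PSI-F was higher on days 1 and 10 and lower on days 3 and 7. Pck1 was at 2.98 and 2.94 on day 1, 3.90 and 2.64 on day 3, 5.28 and 4.42 on day 7, and 4.47 and 6.20 on day 10, and every graft of days 7 and 10 lay above every graft of days 1 and 3.

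In the comparison of late grafts (days 7 and 10) with early ones (days 1 and 3), none of the 40 genes had an adjusted p under 0.05 in limma, where 0.863% of all genes did. At an unadjusted p under 0.05 in limma 3 genes were higher late: Pck1 by 1.98 (SE 0.40, adjusted p = 0.0561; 0.94 with the mean of its probe sets), Lep by 0.95 (adjusted p = 0.0818), near background, and Adipoq by 0.95 (adjusted p = 0.224). The other Pck1 probe sets had mean levels of 0.48 and 1.49, near background. Without PSI of day 3, Pck1 (2.24, limma adjusted p = 0.0415) and Lep (1.13, limma adjusted p = 0.0351) had an adjusted p under 0.05. The sterol genes had a median of -0.11, since day 7 and day 10 lay on opposite sides. The polyA spike-in controls were brighter on the late arrays, with medians of 4.34 to 5.25 against 3.32 to 3.76 on the early ones. They also differed within the other comparisons. Their medians were 3.86 in Control and 4.38 in Diabetic, 4.65 and 5.25 in PSI and PSI-F on day 7, and 4.47 and 4.34 on day 10. Their part in any comparison was not tested.

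Between the 8 grafts and the 2 biopsies, none of the 40 genes had an adjusted p under 0.05 in limma, where 2.85% of all genes did. Insig1 was lower in every graft than in both biopsies, at -1.0 (SE 0.26, limma adjusted p = 0.0783), and so was Fdft1, at -0.61 (limma adjusted p = 0.191). Of the 40 genes, only these 2 had an unadjusted p under 0.05 in limma with all arrays. Of all 18193 genes, 1920 were higher and 1861 lower in grafts at that p. With Diabetic left out, a lone Control array stands for the biopsies, and the differences were -1.33 for Insig1 and -0.7 for Fdft1. Insig1 was at 6.97 in Control and 6.30 in Diabetic, and the 8 grafts lay from 5.21 to 6.08. With Control left out, a lone Diabetic array stands for the biopsies, so only sizes of differences are given. The grafts then lay below it in Plin4 (-1.61), Pnpla2 (-1.54) and Acacb (-0.93) and above it in Pparg (1.42).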

How the data were processed

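The authors deposited log2 values, 1 for each probe set and array, which they obtained by RMA (background correction, quantile normalization and summary of the probes). According to the submitters' processing notes, R 2.15.0 with affy 1.36.0 was used. From these values, 45037 of 45101 probe sets were tested, with 64 controls left out. Of those tested, 34945 carry 1 gene symbol, 932 several and 9160 none, and those with several were used to name no gene. The tests used limma 3.58.1 (R 4.3.3) with Benjamini-Hochberg adjustment over all 45037 probe sets, and a difference within 1 pair of arrays has no test. The procedures were tested on simulated data. The genes, lists, comparisons and alternatives were chosen with earlier results of these data known, and the comparison of day 10 with day 7 after its values were seen. All 40 genes are accounted for, with levels on every array for those with an adjusted p under 0.05, those 4-fold apart between the biopsies and the leading genes of each role. Of each pathway list at most the 4 genes with the largest difference between the biopsies are named, and those called between day 7 and day 10 were added after their values were seen. Alternatives were a filter on dim probe sets, the mean of a gene's probe sets, cyclic loess (3 iterations) on top, an intensity trend, other terms, a 4-fold threshold and leaving out arrays. Python 3.11.15 with numpy 2.4.6, matplotlib 3.10.9 and pandas 2.3.3 made the tables and figures. With 1 array per condition, the number of arrays limits the precision.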

Additional observations from a re-analysis of the deposited data

Results flagged for a closer look

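Among the 8 grafts, 4 of the 40 genes had an array far from the others by Dixon's criterion for 8 values. Chance gives this in about 1 of 20 groups, and the share over all genes is not given here. Slc2a4 was at 6.66 in PSI-F of day 3, with the grafts ranging up to 7.78. Car3 was at 11.52 on the same array, where the highest graft was at 12.00. Ucp1 was at 2.20 in PSI-F of day 7, below the median of the array, and Srebf1 was at 7.09 in PSI of day 1, with the highest graft at 7.45.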

How the results depend on the processing

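No gene with an unadjusted p under 0.05 in a limma comparison, or 2-fold apart between the biopsies, changed direction under the alternatives run. For day 10 against day 7, leaving out a graft of day 1 could not change a direction. Between Diabetic and Control, a 4-fold threshold left 4 genes lower (15 at 2-fold) and 1 higher (3 at 2-fold). Between PSI-F and PSI, a 4-fold threshold left 0 on days 3, 7 and 10, the mean of a gene's probe sets gave 0 on day 7 and 1 on day 10, and loess gave 0 on day 7. With the day as a block, 0 genes were called in limma under every alternative (0 to 0 with single days left out). From day 7 to day 10, limma called 8 genes, 4 with loess and 4 without the graft kind term (8 with the mean of a gene's probe sets, of which 3 were others), and 0 to 11 with single arrays left out. Late against early grafts, it called 1 gene, Pck1, without dim probe sets (adjusted p = 0.0488, with a range of 0.0415 to 0.16 over its alternatives, and of 0.0351 to 0.214 for Lep) and 0 to 2 with single arrays left out. For grafts against biopsies it called 0 with any single graft left out. The fits without Control or without Diabetic left 1 biopsy, so their calls are not given. Where leaving out an array left 1 array in an arm, that array was assumed to vary like the rest. PSI and PSI-F were paired by day through the day block, and without it no gene was called either. The replicate numbers pair nothing, since each group has 1 array. Levels near the array median are close to background, which limits Lep, Ucp1 and Pck1 most.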
